A study of Mus musculus with 4 samples.

Results

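The neuronal intermediate filament genes comprised *Nefl*, *Nefm*, *Nefh*, *Ina*, *Prph* and *Nes*, which encode the neurofilament light, medium and heavy chains, alpha-internexin, peripherin and nestin. They were chosen by name, with earlier results of these data known. Every probe set whose single symbol in the platform annotation was one of these names was taken. This gave 7 probe sets of 6 genes, out of 35556 probe sets in all and 19938 genes with a probe set of 1 symbol. *Ina* had 2 probe sets, and each of the other genes had 1. No probe set that carries several symbols held one of these names.

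Intermediate filaments are rope-like polymers that give a cell mechanical strength. In neurons the light chain is the core of the polymer, on which the medium and heavy chains assemble with long side arms, and alpha-internexin and peripherin join them, the latter mainly in peripheral neurons. Neurofilaments are transported slowly along axons, and the caliber of an axon depends on them. Nestin marks dividing progenitors of the nervous system and is also made in other embryonic cells, and in the inner ear antibodies against neurofilaments and peripherin are used to trace the fibers of the spiral ganglion, with peripherin marking its type II neurons.

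The arrays compared whole cochleas of mouse embryos at E15, with 2 arrays of wild-type embryos and 2 of mutants (*Meis2* flox/flox; *Pax2* Cre/+), in order to find genes whose expression depends on *Meis2* in the developing cochlea. *Meis2* encodes a homeodomain transcription factor, and Cre driven by *Pax2* recombines the floxed alleles in the otic placode and its descendants, so cochlear cells of other origin keep them. For the wild-type embryos the labels name no allele or Cre, so whether they carried Cre with an intact *Meis2* is not known. Neither the labels nor the methods say whether an array came from 1 embryo or from a pool, and the p-values measure only the spread between these arrays. Replicates bear the numbers of the labels, which are 2 and 3 for wild-type and 1 and 2 for the mutant.

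Signals are log2 values on an arbitrary scale that depends on the probes, so that they can be compared between arrays for 1 probe set but not between probe sets. The Pearson correlation over all probe sets was 0.993 between the wild-type arrays and 0.996 between the mutant arrays. The probe set of *Meis2* itself gave 9.64 and 9.38 in the wild-type and 9.61 and 9.80 in the mutant arrays, a difference of 0.19 that did not pass the test (adjusted p = 0.284, limma). Where this probe set lies relative to the floxed part is not given in the sources used here, so it does not check the genotypes, and "mutant" stands below for the arrays labelled so. *Gata3* (10.98 to 11.53) and *Pou3f4* (12.03 to 12.34), which mark otic epithelium with its ganglion and periotic mesenchyme, were bright on every array. The median difference between the genotypes over all probe sets was 0.11 toward the mutant, and 37.3 percent of all probe sets passed the test (21.6 percent higher and 15.7 percent lower in the mutant).

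Of the 7 probe sets, 3 were lower in the mutant, those of *Nefl*, *Nefm* and *Nes*, and 1 of the 2 probe sets of *Ina* was higher. The 4 calls among 7 probe sets stand beside the 37.3 percent of all probe sets (40.4 percent of genes), and the calls were made with limma at an adjusted p of 0.05. All 7 were brighter than the median probe set. In a fit of only the probe sets above that median, 58.3 percent were called, among them the same 4 of the 7. The genotypes did not overlap in these 4 probe sets and overlapped in the other 3, whereas 76.1 percent of all probe sets had no overlap. In whole tissue, fewer cells of a type and less RNA per cell cannot be told apart. The calls for *Nefl* and the second *Ina* probe set held when any 1 array was left out, those for *Nefm* and *Nes* did not.

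**Figure D1:**
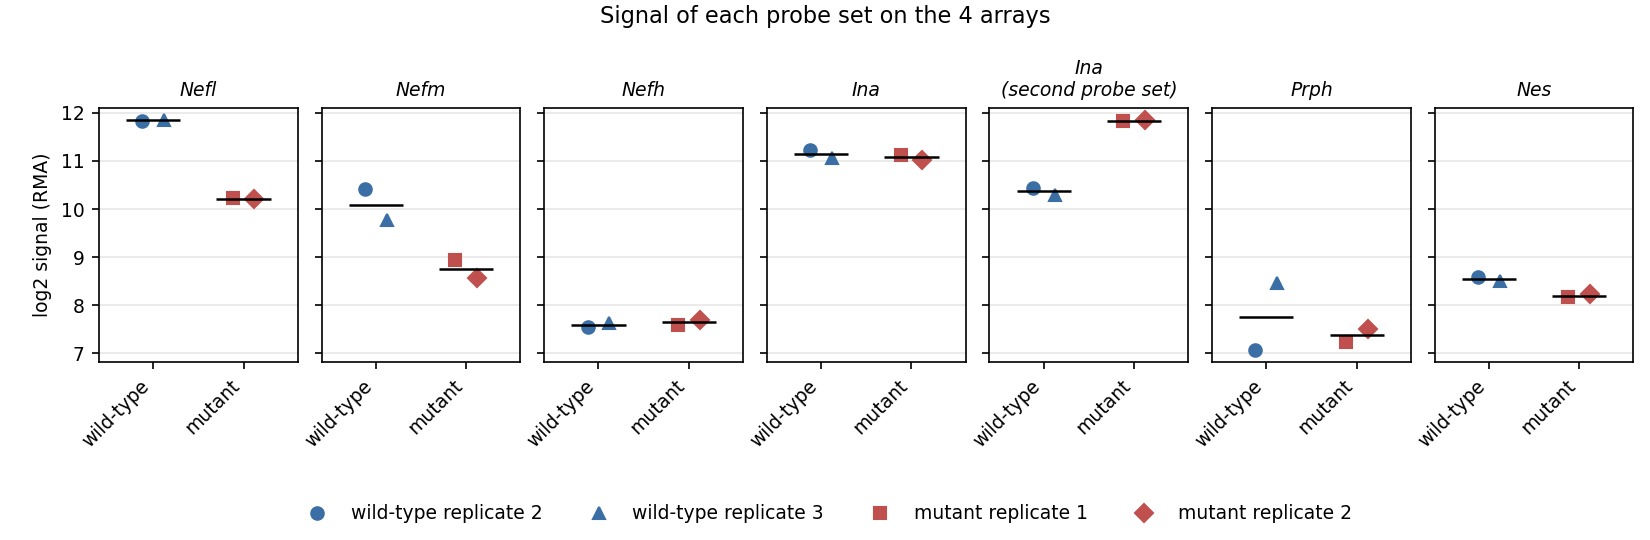
Log2 signal of each of the 7 probe sets on the 4 arrays, with wild-type and mutant arrays as separate points and the mean of each genotype as a line. The mutant arrays sit below both wild-type arrays for Nefl, Nefm and Nes and above them for the second Ina probe set, and the genotypes overlap for Nefh, the first Ina probe set and Prph.

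*Nefl*, encoding the core subunit of neurofilaments, gave signals of 11.83 and 11.86 in the wild-type and 10.22 and 10.20 in the mutant arrays. The arrays of a genotype were separated by no more than 0.03, while the genotypes were far apart. The mean fell from 11.84 ± 0.02 to 10.21 ± 0.02 (SD, n = 2 arrays in each genotype), a difference of -1.63 with a standard error of 0.08 and a 95% confidence interval of -1.83 to -1.43 (adjusted p = 0.00244, limma). Thus *Nefl* was 3.10-fold lower in the mutant, with an interval of 2.69-fold to 3.56-fold. Only 0.962 percent of all probe sets had a difference this negative or more so, with *Nefl* at rank 342. *Nefl* is among the genes that the study picked from these same arrays, so its direction here is not independent evidence.

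*Nefm*, the medium chain, gave 10.41 and 9.77 in the wild-type and 8.94 and 8.56 in the mutant arrays. All mutant values lay below all wild-type values, but the wild-type arrays were 0.64 apart, a larger gap than that of 97.6 percent of probe sets. The mean fell from 10.09 ± 0.45 to 8.75 ± 0.26 (SD, n = 2 each), a difference of -1.34 with a standard error of 0.25 and an interval of -1.98 to -0.70 (adjusted p = 0.0160, limma). This amounted to a 2.53-fold lower signal, with an interval of 1.62-fold to 3.94-fold. Without mutant replicate 2, the difference was -1.15 and no longer passed (adjusted p = 0.0756, limma). When 1 array was left out, the difference ranged from -1.66 to -1.02.

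*Nefh*, the heavy chain, which joins neurofilaments as axons mature, gave 7.56 and 7.63 in the wild-type and 7.60 and 7.69 in the mutant arrays. The genotypes overlapped. The means were 7.59 ± 0.05 and 7.64 ± 0.07 (SD, n = 2 each), with a difference of 0.05 and an interval of -0.17 to 0.27 (adjusted p = 0.655, limma). After the medians of the arrays were set equal, the sign turned, with a difference of -0.034.

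The first probe set of *Ina*, a filament protein of young neurons that assembles with the neurofilament chains, gave 11.23 and 11.06 in the wild-type and 11.13 and 11.02 in the mutant arrays. These values overlapped, with means of 11.14 ± 0.12 and 11.07 ± 0.08 (SD, n = 2 each). The difference of -0.07 had an interval of -0.33 to 0.19 (adjusted p = 0.599, limma), and its sign turned to positive when quantile normalization was repeated (0.035) and without wild-type replicate 2 (0.017).

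The second probe set of *Ina* gave 10.44 and 10.30 in the wild-type and 11.82 and 11.84 in the mutant arrays. The mutant arrays lay well above both wild-type arrays. The mean rose from 10.37 ± 0.10 to 11.83 ± 0.01 (SD, n = 2 each), a difference of 1.46 with an interval of 1.23 to 1.69, which is 2.75-fold higher (adjusted p = 0.00267, limma). The platform ties this probe set to a single cDNA accession that the first probe set also lists, and the part of the transcript that each reads is not given in the sources used here. The probe sets of *Ina* thus disagreed, with differences 1.53 apart (interval 1.31 to 1.76). The mean of both, which was added after the values were seen, was 10.84 and 10.68 in the wild-type and 11.48 and 11.43 in the mutant arrays, a difference of 0.69 (adjusted p = 0.00134, limma over gene means, of which 51 percent passed). No direction for *Ina* as a gene can be given from probe sets that part in this way.

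*Prph*, encoding peripherin, gave 7.07 and 8.47 in the wild-type and 7.24 and 7.51 in the mutant arrays. Both mutant values lay between the wild-type values, whose gap of 1.40 exceeded that of 99.7 percent of probe sets. The means were 7.77 ± 0.99 and 7.37 ± 0.20 (SD, n = 2 each), with a difference of -0.39 and an interval of -1.59 to 0.80 (adjusted p = 0.525, limma). Without wild-type replicate 2 the difference was -1.09 and passed (adjusted p = 0.0141, limma), and without wild-type replicate 3 it was 0.31 and did not (adjusted p = 0.190, limma). The direction of *Prph* thus rested on which wild-type array was used.

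The wild-type arrays that differed in *Prph* and *Nefm* also differed in sex-linked genes. *Xist*, the RNA that coats an inactive X chromosome, gave 5.54 and 11.51 in wild-type replicates 2 and 3 and 11.83 and 11.84 in the mutant arrays. The Y-linked *Eif2s3y* gave 8.76 and 7.77 in the wild-type and 4.68 and 4.88 in the mutant arrays, and *Uty* and *Kdm5d* were likewise lower in the mutant (3 of 3 Y-linked genes measured). Wild-type replicate 3 gave both *Xist* at 11.51 and *Eif2s3y* at 7.77, as RNA of both sexes would. Whether that array came from a pool was not tested. The signals of these genes thus moved with the genotype as well as between the wild-type arrays, so sex and genotype cannot be fully told apart here. The part of these genes in the filament differences was not tested.

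*Nes*, encoding nestin, gave 8.60 and 8.50 in the wild-type and 8.17 and 8.23 in the mutant arrays. The genotypes did not overlap, and the step between them was small. The mean fell from 8.55 ± 0.07 to 8.20 ± 0.04 (SD, n = 2 each), a difference of -0.35 with an interval of -0.57 to -0.13, or 1.28-fold lower with an interval of 1.10-fold to 1.49-fold (adjusted p = 0.0306, limma). It did not pass in any of the 4 fits that left out 1 array, with adjusted p from 0.0528 to 0.146 (limma) and differences from -0.40 to -0.31. With quantile normalization repeated, the difference was -0.28 and did not pass (adjusted p = 0.0745, limma).

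**Figure D2:**
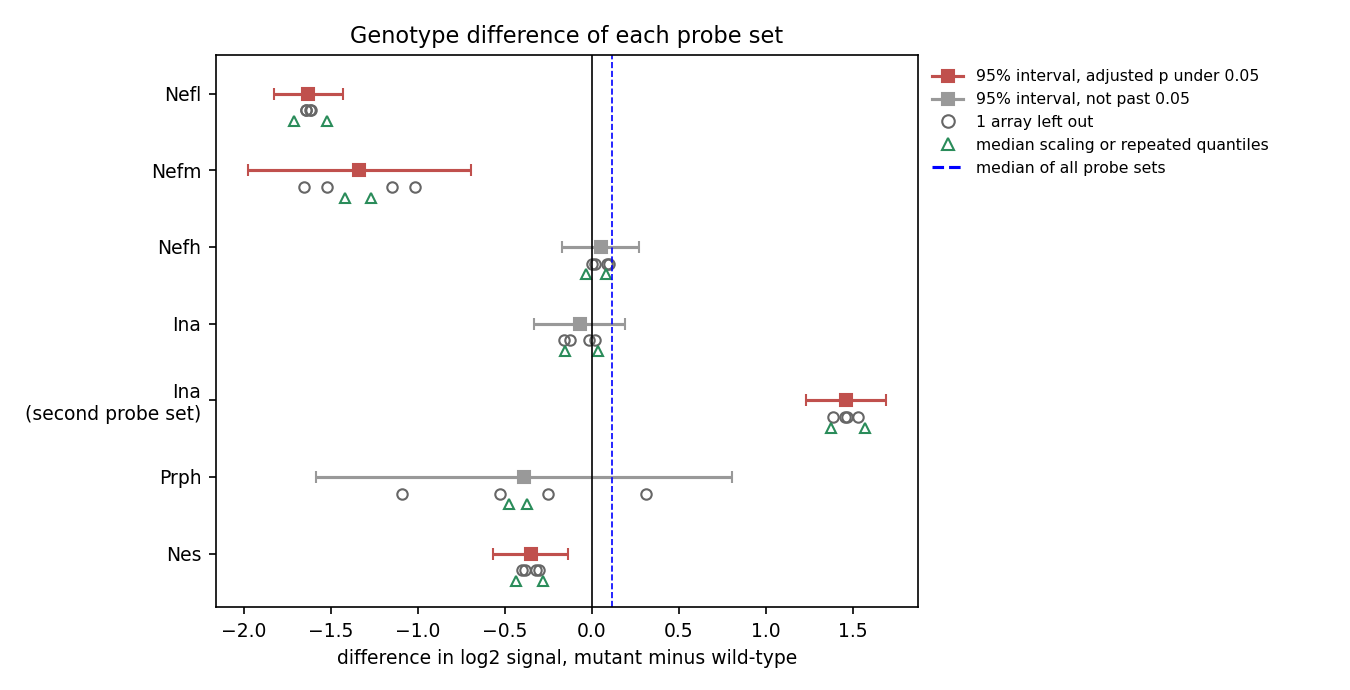
Difference in log2 signal (mutant minus wild-type) for each of the 7 probe sets, as squares with 95% confidence intervals, beside the values with 1 array left out (circles) and under other scaling between arrays (triangles), with a dashed line at the median of all probe sets (0.11). Nefl (-1.63) and Nefm (-1.34) lie farthest below 0 and the second Ina probe set (1.46) above it, while the intervals of Nefh, the first Ina probe set and Prph include 0.

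The differences of the genes were also set against each other, with the brighter probe set of *Ina* on average, which was only marginally brighter than the other. For 9 of the 15 pairs of genes the unadjusted 95% interval left out 0. *Nefl* fell by 0.29 more than *Nefm* on the log2 scale, with an interval of -0.95 to 0.36 for the difference between them, which includes 0. Without wild-type replicate 2 the difference between the light and medium chains was -0.63, with an interval that left out 0, and without wild-type replicate 3 it was 0.042. Both were lower relative to *Nefh*, *Nefl* by -1.68 (-1.90 to -1.46) and *Nefm* by -1.39 (-2.11 to -0.66). *Nefh* itself gave only 7.56 to 7.69, beside array medians of 6.63 to 6.73, which leaves limited room for a fall. Relative to *Nes*, the values were -1.28 (-1.51 to -1.04) for *Nefl* and -0.98 (-1.59 to -0.38) for *Nefm*. The interval of *Nefm* against *Prph* ran from -2.72 to 0.83.

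Promoter sequence was taken from RefSeq (GRCm38.p6) for the genes that the table held, *Nes*, *Prph* and *Ina*, as the 250 bases before the transcript start on the plus strand. *Nes* is shown because it passed the test, and *Prph* as the gene whose arrays varied most. Capitals mark the GC box (GGGCGG, on either strand) and the TATA box (TATAAA), of which the region of *Nes*, chr3:87970843-87971092, and that of *Prph*, chr15:99054924-99055173, held the following.
Nes: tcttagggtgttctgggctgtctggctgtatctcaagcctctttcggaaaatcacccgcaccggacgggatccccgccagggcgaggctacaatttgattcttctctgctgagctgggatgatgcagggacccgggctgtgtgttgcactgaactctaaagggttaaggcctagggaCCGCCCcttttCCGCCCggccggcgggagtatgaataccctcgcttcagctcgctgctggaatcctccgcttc
Prph: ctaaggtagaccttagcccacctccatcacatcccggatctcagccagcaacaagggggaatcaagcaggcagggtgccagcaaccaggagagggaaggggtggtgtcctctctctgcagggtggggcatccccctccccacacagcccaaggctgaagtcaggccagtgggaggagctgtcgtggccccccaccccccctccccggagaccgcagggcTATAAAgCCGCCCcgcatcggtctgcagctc
The *Nes* promoter held 2 GC boxes and no TATA box, while that of *Prph* held a TATA box at position -31 and a GC box at -24, counted from the start to the leftmost base. GC boxes stood in 32.7 percent and TATA boxes in 12.4 percent of all 32851 promoters of this length. The *Ina* promoter (chr19:47014431-47014680) held 2 GC boxes and no TATA box, and its GC content of 70.8 percent was above that of 91.7 percent of promoters. The letters TGACAG, a Meis site, stood in 15.9 percent of promoters but in none of these, and the letters TGATNNAT or AGATNNAT, a joint site of Pbx and Hox, in 14.3 percent and in none of these. The letters TAAT, on which many homeodomains bind, stood in 54.9 percent of promoters and in none of these, and those of an E-box (CANNTG) in 66.2 percent and in that of *Ina* alone. All motifs were searched on both strands. No promoter sequence was at hand for *Nefl*, *Nefm* or *Nefh*. The study reports that most Meis2 binding sites in an otic cell line lay far from the nearest transcript start. These counts therefore do not bear on whether Meis2 binds at these genes.

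The genes whose pattern over the 4 arrays was most like that of each called probe set were found by the root mean square distance between signals centred on their means. For *Nefl* they were *Arid4b*, *Hnrnpa2b1* and *Pnn*, at distances of 0.0273, 0.0296 and 0.0372, with differences of -1.59, -1.59 and -1.57. *Hnrnpa2b1* encodes an RNA-binding protein and *Pnn* the splicing-associated protein pinin. The 3 probe sets nearest to *Nefm* all belonged to *Atp5l*, a subunit of the mitochondrial ATP synthase, at 0.0890 to 0.0958. Nearest to the second probe set of *Ina* were *Snai1*, *Trpv4* and *Uck2*, at 0.0249 to 0.0439, and nearest to *Nes* were *Arl16*, *ND3* and *Ankrd17*, at 0.0083 to 0.0118.

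*Nefl* and *Nefm* are direct neighbors on chromosome 14 in the RefSeq order of protein-coding genes. None of the 4 genes measured around this pair was lower past the test, beside 16.2 percent of all genes. *Dock5* was higher by 0.46 (adjusted p = 0.0303, limma), while *Gnrh1* (0.12), *Adam7* (-0.01) and *Adamdec1* (0.02) did not pass. Signals of *Gnrh1*, *Adam7* and *Adamdec1* were at most 6.07, below the median of every array (6.63 to 6.73), which leaves little room for a fall. Around *Nes* on chromosome 3, *Bcan* and *Hapln2* were higher by 0.54 and 0.53 (adjusted p = 0.0229 and 0.00963, limma), and *Isg20l2* (-0.45) and *Crabp2* (0.14) did not pass. Signals of *Bcan* and *Hapln2* (at most 6.42), and of *C1ql4* near *Prph* (at most 6.19), also lay below the median of every array. Of the nearest measured genes around *Prph* on chromosome 15, 3 were higher, *Lmbr1l* by 0.70, *Troap* by 0.68 and *C1ql4* by 0.31, and the tubulin gene *Tuba1a* was lower (-0.87), with adjusted p of 0.00753, 0.00511, 0.0432 and 0.00539 (limma). Around *Ina* on chromosome 19, *Nt5c2* (-0.39) and *Taf5* (-0.36) were lower and *Cnnm2* higher by 0.38 (adjusted p = 0.0259, 0.0273 and 0.0228, limma), and *Pcgf6* (-0.01) did not pass. Around *Nefh* on chromosome 11, *Nipsnap1* was lower (-0.55) and *Gas2l1* higher by 0.50 (adjusted p = 0.0156 and 0.0297, limma), and *Thoc5* (-0.39) and *Ap1b1* (0.24) did not pass.

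**Figure D3:**
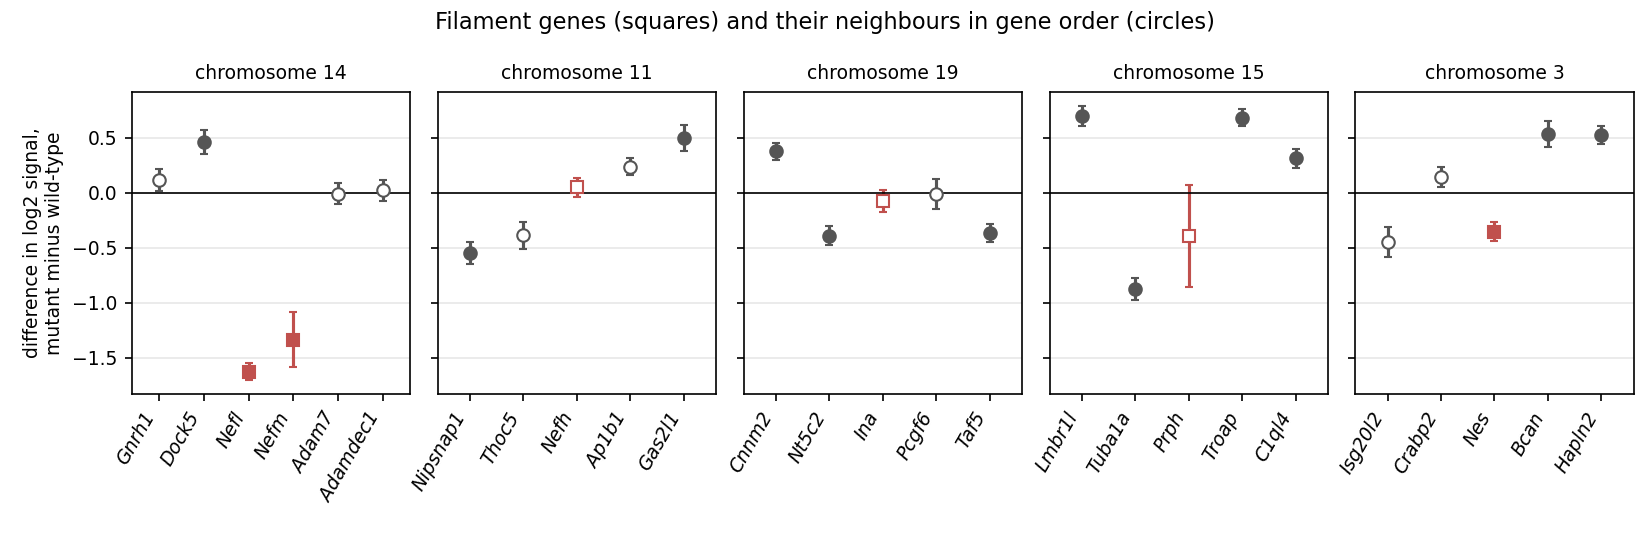
Difference in log2 signal (mutant minus wild-type) of the filament genes, as squares, and of the 2 nearest measured protein-coding genes on each side in RefSeq order, as circles, with 1 panel per chromosome, bars of 1 standard error on each side and filled symbols for an adjusted p under 0.05 (limma). Nefl (-1.63) and Nefm (-1.34) stand next to each other below 0, and their neighbors on chromosome 14 lie between -0.01 and 0.46.

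Other filament genes of the same classes were compared next, against 24.2 percent of all genes higher and 16.2 percent lower in the mutant. Of 7 further type III, type IV and lens filament genes, 0 passed at an adjusted p of 0.05 (limma), although 4 had an unadjusted p under 0.05 and SAM, which called 79 percent of all genes, called 6, and without wild-type replicate 3 limma called 1 as higher. *Vim*, encoding vimentin, the main filament of mesenchyme and of immature neural cells, had a difference of 0.23 (adjusted p = 0.0696, limma), and *Gfap*, the filament of astrocytes and some glia, one of 0.29 (adjusted p = 0.0566, limma). Among 3 lamin genes, *Lmnb1* was lower (-0.74, adjusted p = 0.0123, limma), but not without mutant replicate 2 (adjusted p = 0.0535, limma). Of 7 plakins, which link filaments to other parts of the cell, 3 were higher and 3 lower, with 0 higher and 0 to 2 lower when 1 array was left out. *Dst*, which anchors neurofilaments, was among the lower ones, at -0.39.

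Genes whose products move and modify neurofilaments followed. Of 18 genes for axonal transport motors, 8 were lower and 1 higher, with a median difference of -0.34 beside 0.13 over all genes, and with 1 array left out 2 to 7 were lower and 0 higher (2 lower without mutant replicate 1, 3 without mutant replicate 2 and 5 without wild-type replicate 3). All 18 were brighter than the median probe set. In a fit of only such probe sets, 10 of them were lower, beside 27.7 percent of genes. *Dync1i2*, an intermediate chain of dynein, was lower (-0.84) and *Kif5b*, a kinesin heavy chain, was lower (-0.77) as well (adjusted p = 0.00428 and 0.00616, limma), and both held in all fits that left out 1 array. Of 12 genes for kinases and phosphatases that act on neurofilaments, 4 were lower and 1 higher, with *Rock1* (-1.53) and *Ppp2cb* (-0.81) among the lower ones (adjusted p = 0.00248 and 0.00641, limma), and 2 to 4 were lower and 0 to 1 higher with an array left out (2 lower without either mutant array, 1 higher only without wild-type replicate 2). Among 7 genes for filament turnover and chaperones, 2 were higher and 1 lower, and with 1 array left out 0 to 2 were higher (2 without wild-type replicate 3, otherwise 0) and 0 lower in each case.

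Neuronal genes outside the filament family differed in both directions, beside 24.2 percent of all genes higher and 16.2 percent lower in the mutant. Of 10 markers of type I and type II spiral ganglion neurons, 2 were higher and 2 lower. Their median difference was 0.11, with 8 above 0 and 2 below. Of 21 genes of neuronal microtubules and growth cones, 7 were lower and 2 higher, and with 1 array left out 3 to 6 were lower and 0 to 2 higher (4 and 3 lower and 0 higher without mutant replicates 1 and 2, 1 higher without wild-type replicate 3). Their median difference was -0.16 beside 0.13 over all genes, with 16 below 0 and 5 above. All 21 were brighter than the median probe set, and in a fit of only such probe sets 7 were lower, beside 27.7 percent of genes. *Gap43*, a growth cone protein, was lower (-1.19), whereas *Tubb3*, the neuronal tubulin often used to mark all neurons, had a difference of 0.04 (adjusted p = 0.00329 and 0.722, limma). Of 18 other pan-neuronal genes, 3 were lower and 2 higher, with log2 summed levels of 12.71 and 12.77 in the wild-type and 12.80 and 12.83 in the mutant arrays, and 0 to 3 were lower and 0 to 1 higher with 1 array left out (0 of each without mutant replicate 2). Of 12 sensory ganglion transcription factors, 3 were lower and 1 higher, and 1 to 3 were lower with 1 array left out (1 without either mutant array). *Neurod1*, a factor needed to form ganglion neurons, fell from 6.61 to 5.25, a difference of -1.36 (adjusted p = 0.00428, limma), and *Isl1*, also made in ganglion neurons, from 9.94 to 9.25, a difference of -0.69, which did not pass without either mutant array. *Ebf3*, another factor of this list, was higher by 0.71 (adjusted p = 0.00496, limma), and like *Neurod1* held in all fits that left out 1 array.

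Markers of other cells in the dissected tissue are set against the 40.4 percent of all genes that passed. Of 12 genes of Schwann cells and satellite glia, 3 were lower and 2 higher, with a median difference of 0.04 (7 above 0 and 5 below). Their log2 summed levels, in which the brightest probe sets weigh most, were 13.71 and 13.88 in the wild-type and 13.21 and 13.25 in the mutant arrays. *Fabp7* (-1.45) and *Cdh19* (-0.94) fell in all fits that left out 1 array. In these fits 2 to 3 of the glial genes were lower and 0 to 1 higher (0 higher without mutant replicate 1). Of 10 skeletal muscle genes, 8 were higher, with summed levels of 9.89 and 10.18 in the wild-type and 10.67 and 11.22 in the mutant arrays, and 1 to 5 were higher when 1 array was left out (1 without wild-type replicate 2 or mutant replicate 2). Of 14 genes of the central nervous system, 3 were higher and 1 lower, with summed levels between 9.74 and 9.89 on all arrays, and with 1 array left out 0 to 3 were higher and 0 to 1 lower (0 of each without mutant replicate 2, 1 of each without mutant replicate 1). Of 11 neural and otic progenitor genes, which *Nes* accompanies as a marker, 3 were higher and 2 lower, with a median difference of 0.13, the same as over all genes. *Pax2* (0.97) and *Msi1* (0.78) rose and *Sox2* fell (-1.94) in all fits that left out 1 array, with adjusted p of 0.00760, 0.00523 and 0.00435 (limma) over the 4 arrays, and 2 to 3 were higher and 1 to 2 lower with 1 array left out (1 lower without mutant replicate 2). The part of these cells in the filament differences was not tested.

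**Figure D4:**
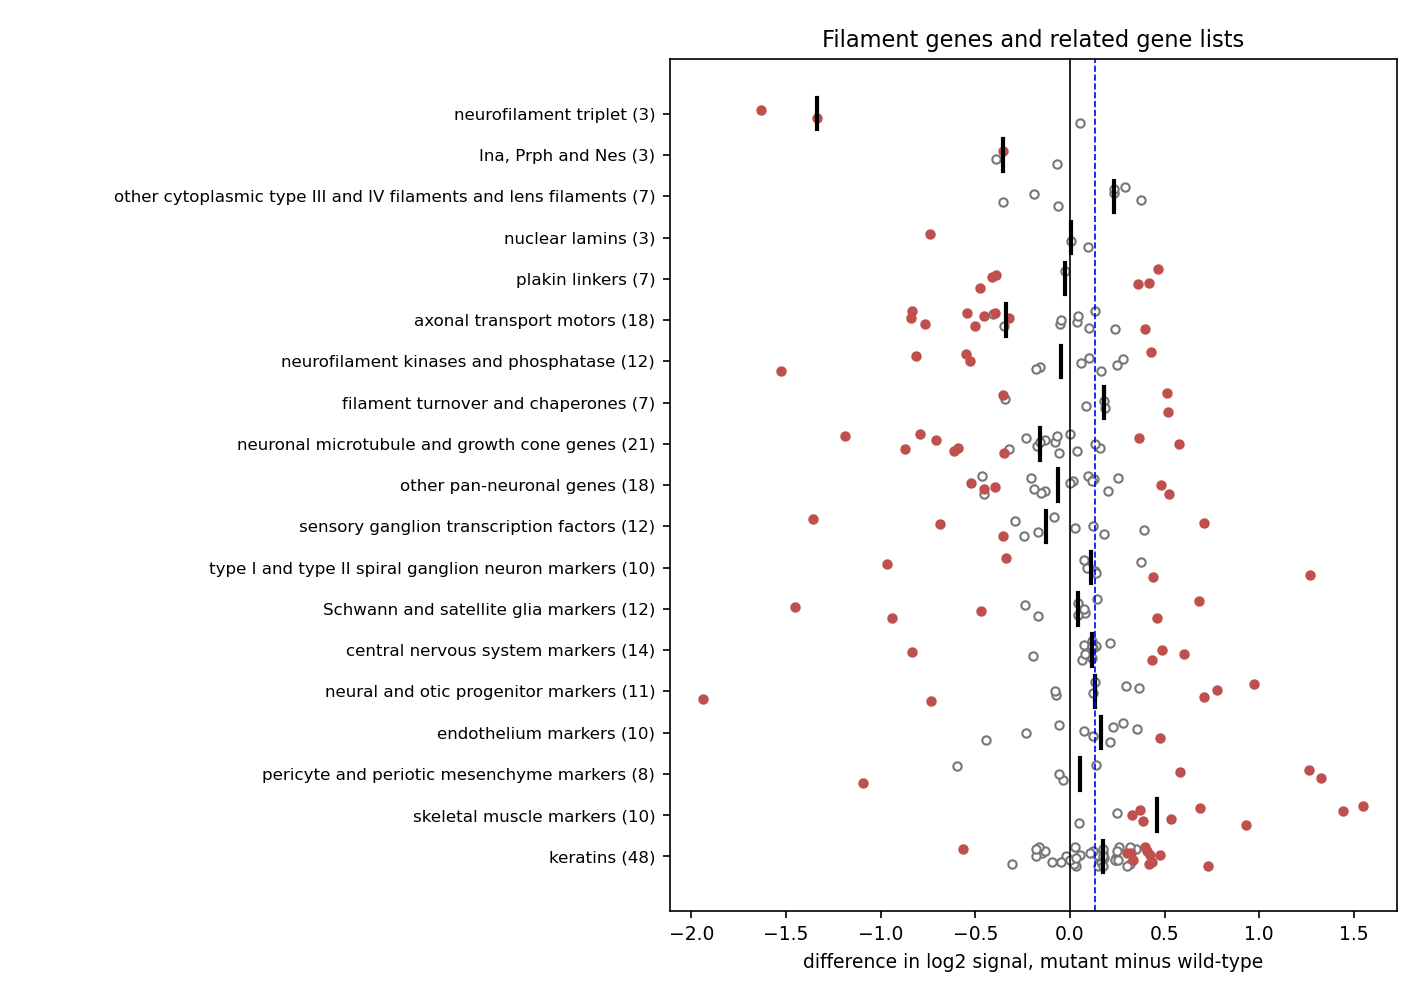
Difference in log2 signal (mutant minus wild-type) of each gene in the filament classes and related lists, 1 row per list (genes measured in brackets) and 1 point per gene, filled where the adjusted p was under 0.05 (limma), with thick bars at the list medians and a dashed line at the median of all genes (0.13). Nefl and Nefm lie at the low end of the neurofilament row, and the axonal transport row has its median at -0.34.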

How the data were processed

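RNA of whole E15 cochleas was amplified, labeled and hybridized to Mouse Gene ST arrays (Affymetrix), per the methods. The authors deposited log2 signals from RMA, a method that subtracts background, equalizes the arrays and summarizes the probes of each probe set. The build in the submitters' notes is mm8. Scanner files were not used here. Columns of 4 arrays entered the fit.

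Values were fitted with limma 3.58.1 in R 4.3.3 (lmFit with eBayes, unfiltered and without covariates), and p-values were adjusted by Benjamini-Hochberg across the whole table of 35556 probe sets, which does not mark controls. The methods name SAM, which was run as an alternative with all 6 relabelings of the arrays. The fit was run on simulated data with independent probe sets, few true differences and no shift shared by all. It therefore does not test the calls where many probe sets differ, as here. Symbols came from the platform annotation, and 21698 of 21789 probe sets with 1 symbol matched a current RefSeq record. A gene of a list was represented by its probe set with the highest mean. Intervals between genes used the variance prior of the limma fit. No depth exists for arrays, whose number limits the precision.

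Genes named are the 6 filament genes, for each list at most 4 genes of lowest unadjusted p, 3 nearest patterns, and the 2 nearest measured protein-coding neighbors on each side. *Tubb3*, *Gata3*, *Pou3f4* and *Meis2* were added after their values were seen. Genes and lists were chosen with earlier results of these data known. Alternatives were SAM, other priors, other scaling between arrays, dropping dim probe sets, keeping those of 1 symbol, a threshold of 0.1 and leaving out each array. When an array is left out, the remaining array of its genotype is assumed to vary like the others.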

Additional observations from a re-analysis of the deposited data

How the results depend on the processing

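No paired analysis was possible because the genotypes share only replicate number 2. SAM called 26962 probe sets against 13268 with limma, and of the filament probe sets 4 under both. With 1 array left out, 4611 to 10895 probe sets and 2 to 4 of the 7 filament probe sets were called. Of the differences of the 7 probe sets under all alternatives, 73 kept direction and side of the threshold, 6 lost the call, 1 gained it and 5 changed sign. SAM, the other priors, the filters on probe sets and the looser threshold leave the difference itself unchanged, so under them direction could not change. It could change only under other scaling, with an array left out or with the mean of both *Ina* probe sets. The changes of sign were *Nefh* with medians set equal (-0.034), *Ina* with quantile normalization repeated (0.035) or without wild-type replicate 2 (0.017) or as the mean of both probe sets (0.69, chosen after seeing the data) and *Prph* without wild-type replicate 3 (0.31). Calls lost were *Nefm* without mutant replicate 2 (-1.15) and *Nes* with quantile normalization repeated (-0.28) or any array left out. Over the fits with an array left out, the differences ran from -1.65 to -1.61 for *Nefl*, -1.66 to -1.02 for *Nefm*, 0.0034 to 0.098 for *Nefh*, -0.16 to 0.017 for *Ina*, 1.39 to 1.53 for its second probe set, -1.09 to 0.31 for *Prph* and -0.40 to -0.31 for *Nes*. Of the differences between genes, those that changed sign ran from -0.63 to 0.042 for *Nefl* minus *Nefm* (0.042 without wild-type replicate 3), -1.96 to 0.074 for *Nefm* minus *Prph* (0.074 without wild-type replicate 2), -0.00073 to 0.24 for *Nefh* minus *Ina* (-0.00073 without wild-type replicate 2), -0.22 to 1.11 for *Nefh* minus *Prph* and -0.47 to 1.11 for *Ina* minus *Prph* (-0.22 and -0.47 without wild-type replicate 3), and -0.79 to 0.71 for *Prph* minus *Nes* (0.71 without wild-type replicate 3, 0.07 without mutant replicate 1). Those whose interval came to include 0 ran from -1.92 to -0.55 for *Nefl* minus *Prph* (without either mutant array) and 0.20 to 0.37 for *Ina* minus *Nes* (without any array but mutant replicate 2). The interval came to leave out 0 for *Nefl* minus *Nefm* (-0.63), *Nefh* minus *Prph* (1.11), *Ina* minus *Prph* (1.11) and *Prph* minus *Nes* (-0.79) without wild-type replicate 2 and for *Nefm* minus *Prph* (-1.96) without wild-type replicate 3. Of 468 counts of genes called in a list, 307 stayed within 1.5 times. With medians set equal, the median difference of all probe sets was 0.029, against 0.11, and lower calls outnumbered higher ones (18.1 against 14.2 percent of probe sets). The cause of these changes was not tested.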
